A study of Drosophila eugracilis and Drosophila pseudoobscura and Drosophila bifasciata with 4 samples.

Results

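The abundant tiles are the stretches of the genome from which ovaries of 3 Drosophila species released the most polyadenylated RNA, always from a preferred strand. Each aligned read (a line of the alignment list) was assigned, at the position where it begins on the RNA strand, to a tile of 500 nt, and the level of a tile was given as RPKM, its lines per kb and per 1000000 lines of the library. A tile was taken as abundant at 500 RPKM or more with under 20% of its lines on the minor strand. These limits chose 249 of 303030 tiles in D. pseudoobscura (0.0822% of all tiles), 474 of 282245 in D. eugracilis (0.168%) and 352 of 382251 in D. bifasciata (0.0921%), in all 1075 of 967526 tiles. Because the level and the strand share chose the tiles, both are given as a description and nothing is tested with them.

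The study examined how piRNAs, the small RNAs with which PIWI proteins recognise transposon transcripts, are made in species that have lost core factors of the pathway, and the RNA-seq libraries showed where precursor and other transcripts arise. All flies were wild type females kept on standard food at room temperature, of the labelled strains MV2-25 (D. pseudoobscura), SHL12 (D. eugracilis) and Jozankei, Hokaidou (D. bifasciata), and 2 to 7 days old per 1 label or 3 to 7 days old per another. Polyadenylated ovary RNA of each species was sequenced from both fragment ends with a kit that keeps the strand. Total ovary RNA of D. eugracilis also went into a QuantSeq library, which reads the region near the 3′ ends of mRNA. There was 1 library per group, so no difference could be set against a spread between flies, and species, strain, assembly and library cannot be told apart. The whole ovary holds germline and somatic follicle cells, and the tiles do not say which of them made an RNA. Fewer cells of a type and less RNA per cell cannot be told apart either.

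Ovaries make large amounts of few messages. Nurse cells supply the growing oocyte with maternal mRNA, chiefly for translation and the cell cycle, and follicle cells secrete yolk and eggshell proteins from small genes, many of which have few and short introns and lie in groups. A piRNA cluster is in contrast a long region rich in transposon remnants, transcribed from 1 strand (uni-stranded) or from both, and its precursors are cut into small RNAs. The tiles carry no gene names in D. pseudoobscura and D. bifasciata, and the gene table of D. eugracilis gives symbols without products, so no abundant tile is assigned to any of these gene classes here.

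The polyA libraries held 14159668 (D. pseudoobscura), 13099511 (D. eugracilis) and 13983030 lines (D. bifasciata), and at these depths 500 RPKM stood for 3540, 3275 and 3496 lines. The abundant tiles took 19.1% of the library in D. pseudoobscura (exact 95% binomial interval 19.11 to 19.15), 43.0% in D. eugracilis (42.98 to 43.03) and 31.2% in D. bifasciata (31.21 to 31.26). All intervals cover counting error only, and the lines of a read pair are not independent. The tiles were 0.452%, 1.06% and 0.684% of the transcribed tiles, those above 1 RPKM. With identical alignments counted once, 176, 432 and 240 tiles passed the limits and held 9.004%, 23.3% and 11.6% of the distinct alignments, so the order of the libraries held while the shares fell in each. Mates of a pair with the same alignment merge in this count too. Mates with the same start and end were less frequent in D. bifasciata (27.0% of the pairs in abundant tiles) than in D. pseudoobscura (71.0%) and D. eugracilis (70.9%).

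The level varied widely among the abundant tiles. The median tile stood at 807 RPKM in D. pseudoobscura, 1058 RPKM in D. eugracilis and 1135 RPKM in D. bifasciata. The highest tile reached 21223, 23980 and 13035 RPKM, respectively. Of the abundant tiles, 89 (D. pseudoobscura), 251 (D. eugracilis) and 194 (D. bifasciata) lay at 1000 RPKM or more, and 15, 24 and 21 at 5000 RPKM or more.

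Near the level limit, the closest 3 tiles inside had 502 to 508 RPKM in D. pseudoobscura, 500.3 to 505 RPKM in D. eugracilis and 500.9 to 503 RPKM in D. bifasciata. The closest 3 outside had 498.0 to 499.3, 497 to 498.6 and 498.5 to 498.7 RPKM. A single tile of 500 RPKM or more failed the strand limit, utg000060l:2448001-2448500 of D. pseudoobscura, at 9955 RPKM with 23.3% of its 70482 lines on the minor strand. Inside that limit, the highest minor-strand shares were 14.7% to 16.0% in D. pseudoobscura, 3.89% to 7.32% in D. eugracilis and 5.43% to 13.5% in D. bifasciata.

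Most abundant tiles stood far from the strand limit. The median minor-strand share was 2.08% (D. pseudoobscura), 0.340% (D. eugracilis) and 1.03% (D. bifasciata), and 38, 1 and 5 tiles reached 5%. Over all their lines the minor strand took 2.85%, 0.487% and 1.25%, against 4.34%, 1.14% and 2.10% in the other transcribed tiles, which had no strand limit. The order of the 3 libraries was thus the same inside and outside the abundant tiles. The strand was also counted over the spliced lines alone. In abundant tiles these are part of the lines that the strand limit used, so they are no independent reading. At the junctions of abundant tiles 0.651%, 0.268% and 0.938% of the spliced lines lay on the less used strand, against 1.72%, 0.432% and 0.914% at those of other tiles, so that in D. bifasciata the abundant tiles were not the lower ones. The abundant tiles used both genome strands, with 140 plus and 109 minus tiles in D. pseudoobscura, 224 plus and 250 minus tiles in D. eugracilis and 199 plus and 153 minus tiles in D. bifasciata.

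Touching abundant tiles of the same strand were joined into loci, which gave 135 loci in D. pseudoobscura, 239 loci in D. eugracilis and 168 loci in D. bifasciata. These loci were short. A lone tile made up 74, 96 and 60 of them, 2 tiles 39, 73 and 70, and 3 tiles 9, 55 and 17, so that loci of 4 tiles or more numbered 13, 15 and 21. The median length was 500 nt in D. pseudoobscura (95% order-statistic interval 500 to 1000) and 1000 nt in D. eugracilis and D. bifasciata, and the longest locus measured 6500, 3500 and 4500 nt.

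The loci sat within longer runs of transcribed tiles. Runs of touching single-strand tiles above 1 RPKM that held an abundant tile had a median length of 2000 nt in each species. The middle 50% lay at 1500 to 3500 nt (D. pseudoobscura), 1500 to 2500 nt (D. eugracilis) and 1500 to 3000 nt (D. bifasciata). Runs without any had a median of 1000 nt. A longer run has more tiles that can be abundant, and a run at low level breaks up more easily at the floor of 1 RPKM. This difference is thus partly set by the choice of tiles. The tile just upstream of a locus stood at a median of 81.4 RPKM on the same strand in D. pseudoobscura, 3.66 RPKM in D. eugracilis and 1.72 RPKM in D. bifasciata, and the tile just downstream at 85.03, 11.3 and 18.9 RPKM. Upstream levels under 10 RPKM were found for 55 of 135, 128 of 237 and 105 of 168 loci. The level also changed along a locus, and in 18 of 61, 62 of 143 and 47 of 108 loci of more than 1 tile the highest tile exceeded the lowest by more than 2-fold. The highest tile was the most 5′ one in 21, 61 and 50 of these loci and the most 3′ one in 25, 43 and 30.

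The level of a locus was given as CPM, its lines per 1000000 lines of the library. The median was 549 CPM in D. pseudoobscura, 1062 CPM in D. eugracilis and 1240 CPM in D. bifasciata. The 10 leading loci took 8.66%, 9.64% and 9.90% of the libraries, which are close to each other. They made up 45.3% of all abundant lines in D. pseudoobscura but 22.4% in D. eugracilis and 31.7% in D. bifasciata, and 13, 37 and 28 loci were needed for 50% of the abundant lines. The curves in the plot of locus level by rank start close together and part further down.

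**Figure D1:**
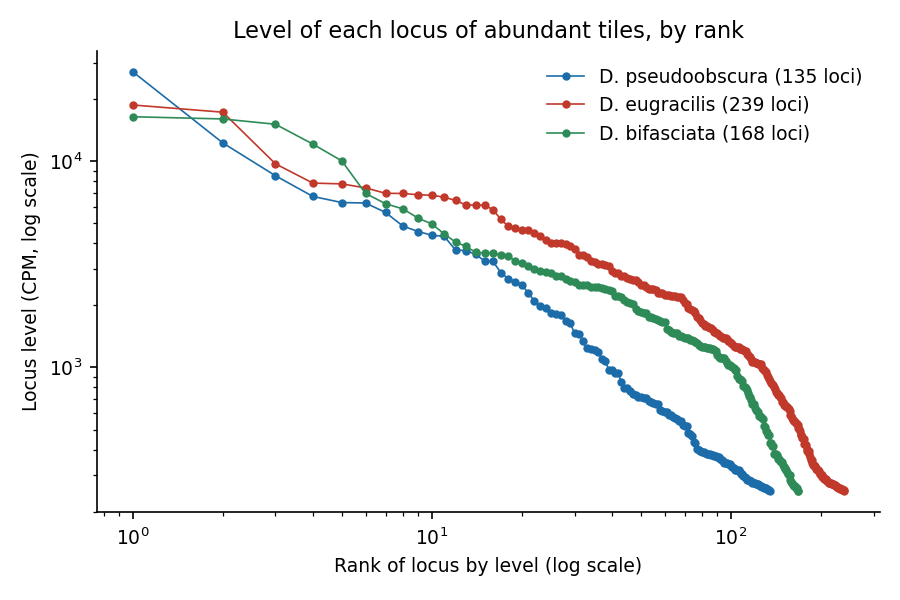
Level of each locus of abundant tiles (y axis, CPM, log scale) against its rank within its species (x axis, log scale), 1 point per locus and 1 library per species. The leading loci lie at 27138, 18725 and 16420 CPM, and beyond rank 20 the D. pseudoobscura loci lie below those of the other species, with 135 loci in all against 239 and 168.

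In D. pseudoobscura the locus of highest level was utg000060l:272001-274000 on the minus strand, at 27138 CPM or 2.71% of the library. Its lines covered 1251 nt of genome, introns included, 17.9% of them were spliced, and an intron of 87 nt started 107 nt from the 5′ edge. The locus utg000060l:275501-276500 followed upstream on the same strand at 6268 CPM with an intron of 88 nt, and with 2 weaker minus-strand loci the group of 4 loci between 272001 and 282500 reached 34228 CPM. Such a group also held the leading locus of D. eugracilis, NW_024573369.1:2072501-2074500 on the minus strand, at 18725 CPM with 26.7% spliced lines, an intron of 296 nt and a covered length of 1507 nt. It lay in the protein-coding gene LOC121530328, and the neighbouring loci NW_024573369.1:2075501-2077000 (6834 CPM, intron of 89 nt, gene LOC121530325), 2078501-2079000 (303 CPM) and 2082501-2083000 (490 CPM) were on the same strand, 26352 CPM in all. The 2 groups resemble each other in layout, but orthology was not assessed.

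Groups of 3 or more loci at most 5000 nt apart occurred 5 times in D. pseudoobscura, 10 times in D. eugracilis and 5 times in D. bifasciata. Of the 9 groups of D. eugracilis on contigs with placed genes, 4 held 3 or more genes and 5 held 1 or 2. A group is thus not always a row of separate genes. The next highest locus of D. eugracilis, NW_024572672.1:25501-26500 on the plus strand with 17273 CPM, belonged to a row of 4 plus-strand loci between 24001 and 30000 that together made 30552 CPM or 3.06% of the library. Each of the 4 lay in its own short gene (LOC121529739, LOC121529741, LOC121529742 and LOC121529750, spans of 850, 635, 758 and 669 nt), and the wider span of a further gene overlapped all 4, so that the table alone does not settle the assignment. Their most used introns measured 157, 72, 98 and 150 nt, and their spliced shares ran from 11.9% to 36.2%. A row of 4 minus-strand loci in D. pseudoobscura, utg000043l:6001501-6008000, reached 11368 CPM with most used introns of 68, 96, 61 and 74 nt. In D. bifasciata the row CM019043.1:38606001-38612500 held 3 plus-strand loci of 3479, 10030 and 2385 CPM.

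Among the other leading loci of D. bifasciata, CM019041.1:35424001-35426000 on the plus strand had 15098 CPM over 1643 nt with 12.6% spliced lines, and CM019041.1:30665001-30667000 on the minus strand had 6218 CPM over 1314 nt with 16.6% and an intron of 125 nt. The locus CM019043.1:8237501-8238500 on the plus strand was spliced far more, with 86.2% of the lines at 5294 CPM, introns of 73 and 135 nt and a covered length of 525 nt. A locus of like form in D. eugracilis was NW_024572605.1:373501-374500 on the plus strand, with 89.3% spliced lines at 6872 CPM, introns of 95 and 102 nt and a covered length of 509 nt. At both loci most lines crossed an intron.

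Of the neighbours at most 5000 nt apart, 24 of 27 (D. pseudoobscura), 43 of 53 (D. eugracilis) and 27 of 33 (D. bifasciata) were on the same strand. Many of these were pieces of the same gene. In D. eugracilis 26 of the 43 shared a gene and 3 more were joined by an intron as described below, which left 14 same-strand neighbours against 10 on opposite strands. Without those joined by an intron, 21 same-strand neighbours were left in D. pseudoobscura against 3 on opposite strands. In D. bifasciata 16 were left against 6. Genes could not be set against them in these species. Some pairs left had overlapping coverage, with gaps of -80 nt (utg000079l:2753001-2755000 and 2756501-2757000), -98 nt (NW_024572388.1:80501-84000 and 84501-85000) and -396 nt (CM019041.1:7011001-7012000 and 7013501-7017000). The counts left may thus still hold pieces of the same transcript. The same-strand share over all transcribed neighbours was not taken. Divergent neighbours numbered 1, 3 and 2. Among them was a pair of leading loci in each species of the obscura group. In D. bifasciata, CM019041.1:39173501-39175500 on the minus strand stood at 16420 CPM and CM019041.1:39176501-39178500 on the plus strand at 16019 CPM. In D. pseudoobscura, utg000062l:478501-480500 on the minus strand stood at 8498 CPM and utg000062l:481501-483500 on the plus strand at 12261 CPM. In both species 1000 nt without an abundant tile lay between the 2 loci, the minus-strand locus covered 1556 and 1604 nt with its most used intron (59 and 76 nt) 269 and 287 nt from the 5′ edge, and the plus-strand locus covered 1670 and 1668 nt with its most used intron (69 and 68 nt) 774 and 761 nt from the 5′ edge. The covered lengths and intron positions of the pairs were thus close in the 2 species, and their levels were higher in D. bifasciata. Whether the pairs are orthologous was not assessed.

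Splicing was set against the other transcribed tiles, as no limit on it entered the choice of tiles. A line was spliced when its alignment had more than 1 block. Over all lines of the abundant tiles, 16.6% were spliced in D. pseudoobscura (16.53 to 16.62), 27.7% in D. eugracilis (27.71 to 27.78) and 23.7% in D. bifasciata (23.63 to 23.71). The other transcribed tiles stood at 15.6%, 20.7% and 16.7%. The direction of this difference depended on how identical alignments were counted. Distinct alignments (start, end, strand and blocks) were 24.5%, 19.8% and 17.0% of the lines in abundant tiles and 50.5%, 47.3% and 49.1% elsewhere, and with identical alignments counted once (and tiles chosen anew) the abundant tiles had the lower spliced share in each species, 11.7% against 15.8%, 19.7% against 20.4% and 14.6% against 16.2%. Mates with the same start and end made up 71.0%, 70.9% and 27.0% of the pairs in abundant tiles and 72.0%, 67.4% and 26.3% elsewhere. The distinct shares thus mix repeated fragments with short fragments read from both ends. At a limit of 1000 RPKM the order also turned in D. pseudoobscura, with 14.9% against 15.9%. No difference in splicing between abundant and other tiles is therefore read from the pooled shares.

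Single tiles fell into spliced and unspliced ones, with few between. A spliced share under 1% was found in 126 of 249 abundant tiles in D. pseudoobscura (50.6%, where 49.5% of all transcribed tiles were so), in 223 of 474 in D. eugracilis (47.0%, background 46.9%) and in 156 of 352 in D. bifasciata (44.3%, background 50.7%). A share of 10% or more was found in 112 (45.0%), 231 (48.7%) and 179 (50.9%), against backgrounds of 42.8%, 45.8% and 41.2%. In D. pseudoobscura and D. eugracilis these counts lay near the background, and in D. bifasciata the share of 10% or more was above it. The depths were unlike, as the median other transcribed tile stood at 14.5, 9.77 and 14.3 RPKM. In a tile of few lines a share under 1% means that no line was spliced. Nearness to the background is therefore not read as likeness. At least 50% spliced lines were found in 34 of 249 abundant tiles (13.7%) in D. pseudoobscura, 105 of 474 (22.2%) in D. eugracilis and 76 of 352 (21.6%) in D. bifasciata, against 14.1%, 17.7% and 12.8% of the other transcribed tiles. With 1 library per species these differences have no replicate check.

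**Figure D2:**
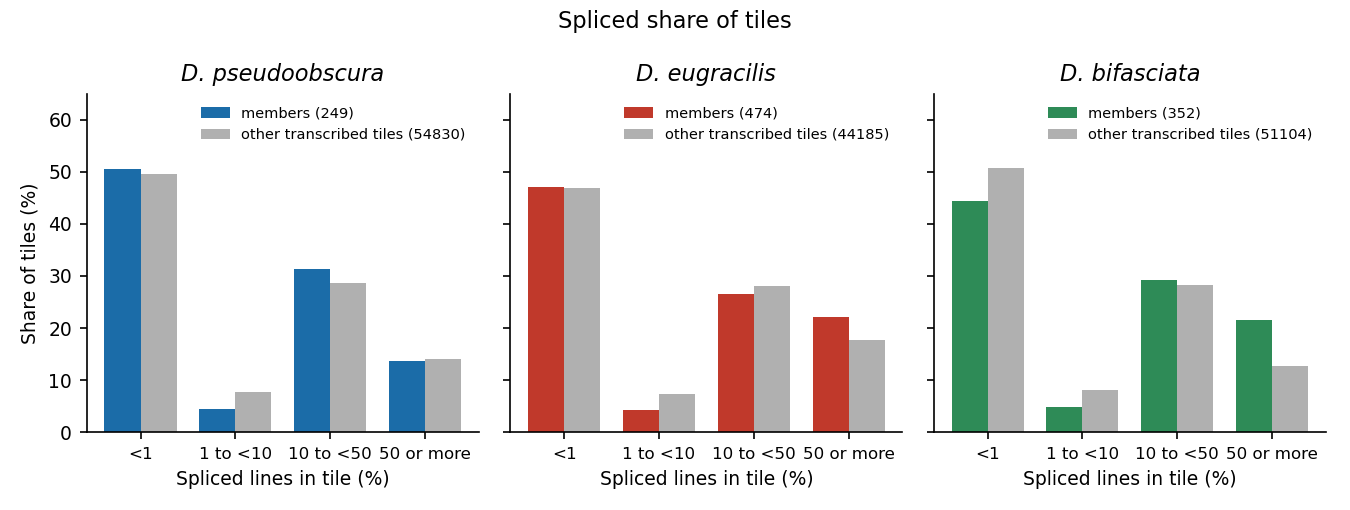
Share of tiles (y axis, %) in 4 classes of spliced lines per tile (x axis, %), with abundant tiles (members) in colour and other transcribed tiles in grey, 1 library per species and the number of tiles in brackets. The classes below 1% are the fullest for both sets in each species, at 44.3% to 50.6% of the abundant tiles.

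The spliced share did not follow the level in a steady way. In D. pseudoobscura it was 22.9% in single-strand tiles of 1 to 10 RPKM, 12.1% at 100 to 250 RPKM, 20.7% at 500 to 1000 RPKM and 14.8% at 2000 RPKM or more. In D. eugracilis it stayed between 19.9% and 23.3% up to 1000 RPKM and was 29.5% at 1000 to 2000 RPKM and 28.5% above. In D. bifasciata it reached 32.1% at 1000 to 2000 RPKM and was 19.6% above, where 89 tiles remained. The uppermost class held 39 tiles in D. pseudoobscura and 131 in D. eugracilis.

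**Figure D3:**
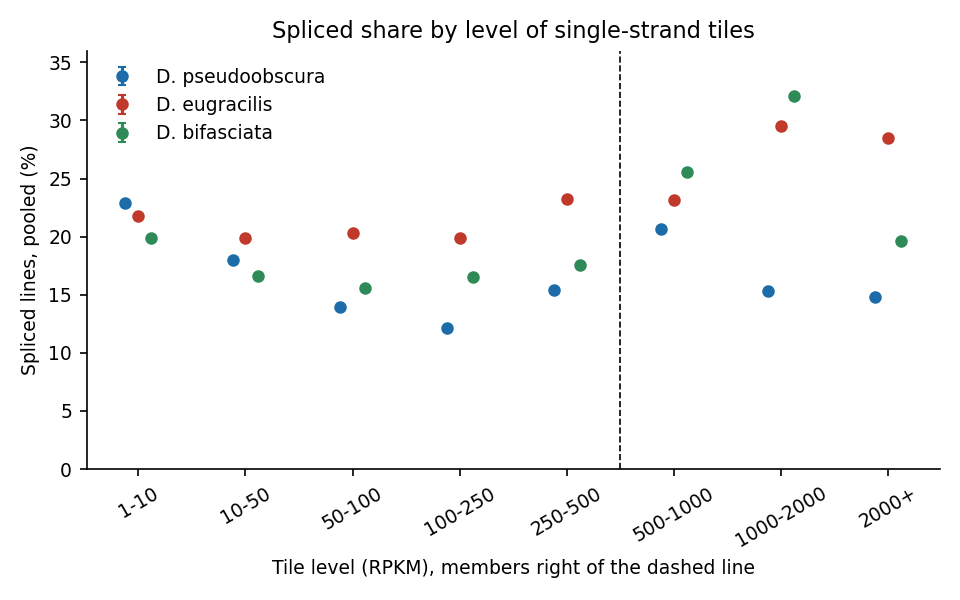
Spliced lines as a share of all lines (y axis, %) in single-strand tiles grouped by level (x axis, RPKM), with exact 95% binomial intervals that are smaller than the points and cover counting error only. Abundant tiles lie right of the dashed line, where D. bifasciata reaches 32.1% at 1000 to 2000 RPKM and falls to 19.6% above.

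By locus, 52 of 135 (D. pseudoobscura), 76 of 239 (D. eugracilis) and 46 of 168 (D. bifasciata) had under 1% spliced lines, and they held 25.3%, 21.1% and 21.2% of all abundant lines. At the other end, 14, 49 and 34 loci had at least 50% spliced lines. An intron carried by at least 10% of the lines of its locus was taken as a main intron. No main intron was seen in 67, 92 and 67 loci, 1 in 46, 90 and 63, 2 in 18, 43 and 33, and 3 or more in 4, 14 and 5. The most used intron of a locus with a main intron began a median of 174 nt (D. pseudoobscura), 156 nt (D. eugracilis) and 133 nt (D. bifasciata) from the 5′ edge, and within 300 nt in 46 of 68, 100 of 147 and 81 of 101 loci. These counts depend on the limit. Unspliced lines of abundant tiles covered a median of 110, 110 and 121 nt, so few lines of a long locus cross any given intron. The lines of the locus utg000091l:186001-189500 of D. pseudoobscura spanned 5167 nt of genome, beyond its tiles, with 4 introns in at least 1% of them and no main intron. The 5′ edge is that of the locus, not a mapped transcript start, and most loci were short. Number and position of main introns are therefore not read as traits of the transcripts.

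Over introns of 40 to 20000 nt with at least 3 lines, the median was 96 nt for D. pseudoobscura (order-statistic interval 82 to 106, 335 introns), 113 nt for D. eugracilis (97 to 132, 510 introns) and 156 nt for D. bifasciata (132 to 185, 454 introns). The introns of other transcribed tiles had medians of 73, 71 and 72 nt. The difference lay in the range of 100 to under 500 nt, which held 124 of 335 introns of abundant tiles in D. pseudoobscura (37.0%, background 15.3%), 206 of 510 in D. eugracilis (40.4%, background 20.3%) and 209 of 454 in D. bifasciata (46.0%, background 15.4%). Introns under 100 nt made up 53.4%, 46.5% and 39.9%, against backgrounds of 60.7%, 57.2% and 61.9%. Introns over 1000 nt were 19 (5.67%), 42 (8.24%) and 32 (7.05%), against backgrounds of 17.3%, 15.3% and 16.5%. A level counted per 500 nt of genome favours tiles filled with exon, so the choice of tiles can bear on these shares. This was not tested.

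The intron medians held at a higher demand on depth in D. eugracilis and D. bifasciata. Over introns with at least 100 lines they were 113 and 159 nt in abundant tiles, against 72 and 71 nt elsewhere. In D. pseudoobscura the median fell to 77 nt (72 to 96, 137 introns), an interval that held the 74 nt of the other tiles. With identical alignments counted once it was 77 nt as well (71 to 90), against 72 nt elsewhere, so in D. pseudoobscura the interval held the median of the other tiles under either setting. In D. eugracilis and D. bifasciata the medians were then 102 nt (87 to 120) and 121.5 nt (87 to 147), against 71 nt in each. The share of introns of 100 to under 500 nt was 32.1% against 15.8% in D. pseudoobscura at this depth.

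**Figure D4:**
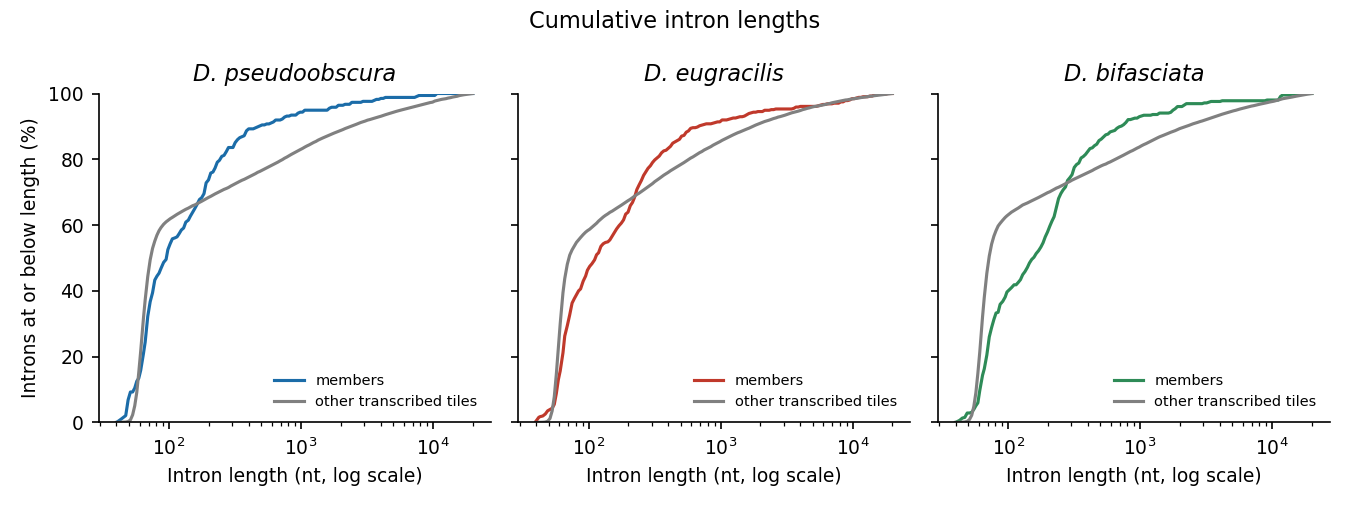
Cumulative share of introns with at least 3 lines (y axis, %) up to a given length (x axis, nt, log scale), abundant tiles (members) in colour and other transcribed tiles in grey, 1 library per species. The curves of abundant tiles run below the grey ones around 100 nt, where they reach 53.4%, 46.5% and 39.9%, and above them at 1000 nt.

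Spliced shares of the longest loci ran from 0.04995% to 37.4%. In D. pseudoobscura utg000077l:1777501-1784000 on the plus strand ran over 6500 nt at 5641 CPM with 6.93% spliced lines and no main intron. The locus utg000091l:186001-189500 on the plus strand had 6299 CPM with 13.9% spliced lines, and utg000074l:3712001-3715500 on the plus strand had 4559 CPM with 8.88%. In D. bifasciata the longest was CM019041.1:35692001-35696500 on the minus strand, at 3617 CPM with 5.31% spliced lines, followed by CM019042.1:44718501-44722000 (plus strand, 5869 CPM, 9.22%) and CM019041.1:7013501-7017000 (minus strand, 4436 CPM, 16.8%). In D. eugracilis the longest was NW_024572388.1:80501-84000 on the minus strand, at 9707 CPM with 10.2% spliced lines. The next longest there were NW_024571840.1:1501-4000 on the plus strand, at 4738 CPM with 0.04995% spliced lines, and NW_024573030.1:3169001-3171500 on the plus strand, at 3501 CPM with 37.4%, which overlapped LOC108117423.

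The unspliced loci with most lines reached high levels too. In D. pseudoobscura utg000079l:2753001-2755000 on the minus strand had 6746 CPM over 1852 nt with 0.0325% spliced lines. In D. bifasciata CM019043.1:6416001-6418000 on the plus strand had 12100 CPM over 1866 nt with 0.0975%. In D. eugracilis NW_024573030.1:2098001-2099000 on the plus strand, in LOC108104438, had 6972 CPM over 785 nt with 0.303%, and NW_024573812.1:4537001-4538000 on the minus strand, in LOC108113223, had 6112 CPM over 575 nt with 0.0212%. Shorter unspliced loci of this kind were utg000135l:383501-384500 (4844 CPM over 474 nt) and utg000142l:3582501-3583500 (4373 CPM over 613 nt) in D. pseudoobscura and CM019042.1:41517001-41518000 (6977 CPM over 610 nt) in D. bifasciata.

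A few abundant loci lay on small contigs that stand apart from the rest. On the D. eugracilis contig NW_024571840.1, whose transcripts were almost free of introns, 6 loci of 14 tiles reached 17599 CPM with 0.0291% spliced lines, the highest being 12001-13500 on the minus strand at 7760 CPM. On unplaced contigs of D. bifasciata lay 11 of 168 loci with 6.13% of the abundant lines, among them WIOZ01000156.1:9001-9500 on the plus strand at 4959 CPM, where 2.80% of the lines were distinct.

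Some loci without an abundant tile between them were pieces of the same spliced transcript. Introns that carried at least 10% of the lines of a locus and ended in another locus of the same strand joined 3 such neighbours in D. pseudoobscura, 15 neighbours in D. eugracilis and 11 neighbours in D. bifasciata, which left 132, 224 and 157 units. The joining introns had a median of 842, 1307 and 1360 nt. They are long by construction, since at least 1 tile of 500 nt that is not abundant lies between the loci. Loci were joined this way after the data had been examined.

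A recurring form was a lone tile spliced almost throughout, joined by an intron to a longer locus that held many more lines. CPM is not scaled to length, so the values below do not compare the level of joined exons. In D. bifasciata CM019043.1:6414501-6415000 (1226 CPM, 99.6% spliced lines) was joined by an intron of 1669 nt to the unspliced locus at 6416001-6418000 (12100 CPM). In D. eugracilis NW_024573812.1:1133001-1133500 (427 CPM, 99.6%) was joined by an intron of 1358 nt to the unspliced locus at 1134501-1136500 (5822 CPM over 1884 nt), both in the gene LOC108106543. In D. pseudoobscura utg000079l:2756501-2757000 (429 CPM, 97.5%) carried an intron of 1585 nt and lay just upstream of the unspliced locus at 2753001-2755000 (6746 CPM over 1852 nt). That intron ended at 2755038, short of the tiles of the unspliced locus, so the D. pseudoobscura loci are not counted among the joined ones. The unspliced loci covered 1866, 1884 and 1852 nt. A further case was seen in the obscura group, with an intron of 641 nt from utg000074l:3711001-3711500 (267 CPM, 96.1% spliced) into the locus at 3712001-3715500 in D. pseudoobscura and an intron of 665 nt from CM019042.1:44717501-44718000 (431 CPM, 98.1% spliced) into the locus at 44718501-44722000 in D. bifasciata. Tiles with under 1% spliced lines thus include exons of spliced transcripts.

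The longest main introns mostly lay in loci of lower level. Several of these loci are pieces of a transcript that the intron divides between loci, so no link of intron length to level is read. In D. pseudoobscura an intron of 10343 nt was carried by utg000135l:1079001-1079500 (377 CPM) and one of 1676 nt by utg000044l:1878501-1879000 (345 CPM, 72.6% spliced lines). In D. bifasciata the longest were 2200, 2080 and 1853 nt at loci of 493, 276 and 323 CPM. These introns led to other abundant loci of 1527, 972 and 300 CPM. D. eugracilis was the exception, where an intron of 5360 nt lay in NW_024573053.1:126001-127500 on the minus strand, at 7829 CPM with 67.2% spliced lines. The next, of 3601 and 2543 nt, lay in NW_024573209.1:2614001-2614500 (286 CPM) and NW_024572605.1:4149501-4150000 (507 CPM). The former was joined to a locus of 260 CPM. The latter shared the gene LOC108109158 with a locus of 2379 CPM. Main introns over 1000 nt were found in 4 of 135, 13 of 239 and 9 of 168 loci.

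In D. eugracilis the loci were also compared with annotated genes of the assembly ASM1815383v1, whose contigs were inferred from the splice junctions. Of 239 loci, 207 lay on contigs with placed genes, and 206 of them had at least 50% of their lines inside a gene. No such share was taken over the other transcribed tiles, so this is not read as a trait of abundant tiles. The loci lay in 180 different genes, 25 of them with 2 or more loci. All but 1 were annotated as protein coding, near the background of 7271 among 7373 other placed genes with at least 10 polyA lines. The exception was LOC108107278, a long noncoding RNA gene of 600 nt at NW_024572605.1:373773-374372, whose locus had 6872 CPM with 89.3% spliced lines and introns of 95 and 102 nt, and whose span also lay inside that of another gene. For 8 loci 2 or more genes overlapped the lines, and the shorter was taken.

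The genes with abundant tiles were short. Their median span was 1424 nt (order-statistic interval 1211 to 1569, 180 genes), against 2735 nt (2656 to 2818) for 7373 other placed genes with at least 10 polyA lines. A span under 2000 nt was found for 121 of 180 (67.2%), where 37.4% of all such genes were that short, and a span over 10000 nt for 3 (1.67%), against 16.2% of the others. Gene span did not enter the choice of tiles, and 1 library gives no replicate check.

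QuantSeq gave D. eugracilis a further library that the choice of tiles did not use. Of the 474 abundant tiles of D. eugracilis, 457 had at least 10 QuantSeq lines on the polyA strand within the tile or 1000 nt downstream, which is 96.4% (exact 95% binomial interval 94.3 to 97.9), where 56.9% of all transcribed tiles did. In the other transcribed tiles the share was 56.4%, and in tiles without any polyA line 1.47%. Counted within the tile alone, 360 of 474 (75.9%) had 10 lines, against a background of 26.7%. A floor of 10 lines is passed more easily at a high level, and the tiles were chosen by their polyA level. With 1000 nt downstream the median was 9927 QuantSeq lines in abundant tiles and 20 in the other transcribed tiles. The higher shares thus say no more than that both libraries had many lines at these tiles. Of the QuantSeq lines in abundant tiles 99.94% lay on the major strand of the polyA library, against 93.5% in the other transcribed tiles. The abundant tiles were chosen by a strand limit, which the other tiles did not have to meet. At their lower level, the other tiles also had fewer polyA lines to set the major strand. The choice of tiles thus favours a higher share in abundant tiles, and no conclusion is drawn from this difference.

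Counted in the tiles alone, the abundant tiles held 43.0% of the D. eugracilis polyA library and 39.4% of the QuantSeq library. With 1000 nt downstream the loci took 51.9% of the QuantSeq library, a window that the polyA value did not have. The ratio of polyA CPM to QuantSeq CPM, the latter with 1000 nt downstream, had a median of 0.954. The middle 50% of loci lay between 0.552 and 1.84, and 130 of 239 loci lay within 2-fold. The window of 100 nt with most QuantSeq lines lay a median of 53 nt from the last base of the polyA coverage, and within 250 nt of it in 175 loci. It held a median of 72.6% of the QuantSeq lines of the locus. LOC108102464 (7421 polyA CPM and 7385 QuantSeq CPM), LOC108113208 (6985 and 7319) and LOC108104438 (6972 and 7640) were examples of near equal levels, and the leading locus in LOC121530328 had 18725 and 29955 CPM.

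**Figure D5:**
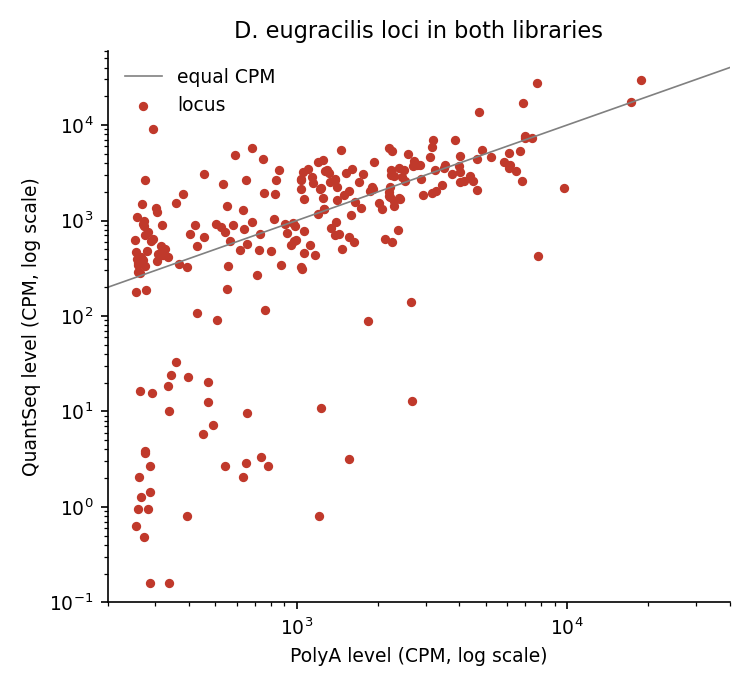
Level of the 239 loci of D. eugracilis in the polyA library (x axis, CPM, log scale) and in the QuantSeq library with 1000 nt downstream (y axis, CPM, log scale), 1 point per locus and 1 library per axis. Most loci lie along the line of equal CPM (130 within 2-fold), and 33 lie below 25 QuantSeq CPM.

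Loci with little QuantSeq signal mostly lay in genes with signal elsewhere. The polyA level exceeded the QuantSeq level more than 10-fold in 37 loci, of which 31 had a gene. In 29 of these 31 the whole gene with 1000 nt downstream reached at least 250 QuantSeq CPM, and the gene span held under 10 QuantSeq lines in 0 of them. The locus NW_024573053.1:126001-127500 lay on a contig without placed genes and stood at 7829 polyA CPM and 424 QuantSeq CPM. Its intron of 5360 nt led to another abundant locus at 120501-121000 (1300 polyA CPM). In the other direction, 52 loci had a polyA level under 0.5 times the QuantSeq level, among them the loci 1501-4000 (4738 polyA CPM and 13771 QuantSeq CPM) and 12001-13500 (7760 and 27431) of the contig NW_024571840.1.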

How the data were processed

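PolyA RNA-seq (150 bp paired-end, directional) was available for ovaries of 3 species and QuantSeq for D. eugracilis, with 1 library each. Per the labels and methods, the authors mapped reads with STAR 2.7.3a (at most 3 mismatches) to a Nanopore assembly (D. pseudoobscura), ASM1815383v1 (D. eugracilis) and UCBerk_Dbif_1.0 (D. bifasciata), kept genome-unique mappers, and wrote them as alignment lists with SAMtools 1.10 and bedtools 2.28.0. The deposited score column holds the mapping quality of the aligner and was not used as a level. Reads with several places in the genome are not in the lists, so repeated genes are seen only through unique stretches, and identical alignments were kept. A read pair counts as 2 lines. In the description of the D. bifasciata library D. eugracilis is named, and its title, organism and contigs were followed. Strain names in the labels differ from stock identifiers in the methods, which was not settled here.

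Lines were counted in Python 3.11.15 with numpy 2.4.6, scipy 1.17.1 and pandas 2.3.3. Tiles of 500 nt ran from the first base of each contig to the furthest aligned base, and RPKM was lines per 0.5 kb per 1000000 lines, scaled to 1 kb. The other transcribed tiles were all tiles above 1 RPKM that were not abundant. Covered length ran from the 1st to the 99th percentile of the line ends in the genome. It thus includes introns and can reach beyond the tiles of a locus. An intron belonged to abundant tiles when at least 50% of its lines were placed there. Shares have exact Clopper-Pearson 95% intervals, and medians binomial order-statistic intervals. Reads carry no molecular identifiers, so PCR copies of a molecule count as lines of their own. Where identical alignments were counted once, the mate was not looked at, so mates with the same alignment merged as well. No test was made between libraries, as each group had 1 sample. The scripts were tested on simulated data.

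Genes of D. eugracilis come from a RefSeq table for ASM1815383v1 without contig, strand or products. Its 15386 genes form 267 runs of rising start. A run was placed on the contig, and only that, with at least 30 junctions of which at least 90% lay inside its genes, and with the last gene end at 0.8 to 1.02 of the furthest aligned base. This placed 50 runs with 13818 genes (89.8%), and contig names rose in 49 of 49 neighbouring runs, a property that was not asked for. The contig of a gene is thus inferred. Lists of ovary genes and cell type markers were not used here, since products are not named, so the tissue was not checked against markers.

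Loci named in the text were, per species, the 10 with most lines (in part summarised), the 3 longest, the 3 unspliced and the 3 with the longest main introns, and the tiles nearest the limits. Groups, divergent loci and joined loci were added after the values were seen. The tiles, lists and rules were chosen with earlier results of these data known. Alternatives were other tile borders, counting of pairs and identical alignments, limits, joining, floors and junction minimums.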

Additional observations from a re-analysis of the deposited data

How the results depend on the processing

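Of 172 values recomputed under other settings, 102 stayed within the counting interval of the reported value, or within 1.5 times of a count, and 70 moved. Values follow the order D. pseudoobscura, D. eugracilis, D. bifasciata unless a species is named, and the cause of a move was not tested unless the setting itself is the cause. The intervals of pooled shares are very narrow at this depth, so small moves count here.

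With tile borders shifted by 250 nt, the share of the library was 19.2%, 43.2% and 31.4%, the spliced share of abundant tiles 16.9%, 27.7% and 23.4%, and that of other tiles 15.5% in D. pseudoobscura and 16.8% in D. bifasciata. With each pair counted once, the share of the library was 19.1%, 43.1% and 30.9%, the spliced share 18.8%, 30.4% and 31.5% in abundant tiles and 17.4%, 22.5% and 23.2% in others, and the intron median of other tiles 70 nt in D. eugracilis.

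With identical alignments counted once, the share of the library fell to 9.004%, 23.3% and 11.6%. The spliced share became 11.7%, 19.7% and 14.6% in abundant tiles and 15.8%, 20.4% and 16.2% in others, which turned the order of the 2 sets. The intron median of abundant tiles was 77 nt in D. pseudoobscura (71 to 90, against 72 nt in other tiles) and 121.5 nt in D. bifasciata (71 nt in other tiles), and the median locus in D. bifasciata 500 nt.

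At 1000 RPKM, 89, 251 and 194 tiles with 13.6%, 35.3% and 25.5% of the library remained by construction, in 48 loci in D. pseudoobscura and 145 in D. eugracilis, and the median locus in D. bifasciata was 500 nt. Spliced shares were 14.9%, 28.7% and 23.2%, against 15.9%, 21.0% and 17.4% in others. With the minor strand under 10%, the share of the library was 18.8% in D. pseudoobscura and 31.2% in D. bifasciata, and spliced shares in D. pseudoobscura 16.8% and 15.5%. Without the 10 leading tiles in the denominator, the shares were 20.9%, 46.7% and 33.4%.

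With any line as the floor of other tiles, their spliced share was 15.5% in D. pseudoobscura and 16.7% in D. bifasciata, and their intron median 73 nt in D. eugracilis. With a floor of 10 RPKM, their spliced share was 15.2%, 20.6% and 16.5% and their intron median 71, 68 and 70 nt. Over junctions with at least 100 lines, the intron median of abundant tiles was 77 nt in D. pseudoobscura, and that of other tiles 74 nt there and 71 nt in D. bifasciata. Weighted by lines, the median of other tiles was 74 nt in D. pseudoobscura and 79 nt in D. eugracilis. Without the contig NW_024571840.1, a setting chosen after seeing the data, the D. eugracilis tiles held 41.2% of the library with 28.9% spliced lines. Counted in the tile alone, 75.9% of its abundant tiles had 10 QuantSeq lines. No paired analysis was possible because each group had 1 library. Neither library nor species effects can be separated at any depth without replicates.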
